A study of Triticum aestivum with 9 samples.

Results

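Hsp70 proteins are ATP-driven chaperones that bind unfolded stretches of other proteins and release them for another round of folding. Hsp40 proteins carry a J domain that stimulates the ATPase of Hsp70, and nucleotide exchange factors (NEF) replace the spent ADP with ATP. Bip is the Hsp70 of the endoplasmic reticulum (ER) lumen, whereas cytosolic Hsp70 proteins in animals and yeast help to handle misfolded proteins that leave the ER for degradation.

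The genes described here were the 9 genes named Hsp70 in the study's table of differentially expressed genes of the pathway "protein processing in endoplasmic reticulum", out of 66 genes in that table and 130542 genes measured. They were looked up by gene identifier, and all 9 were found and passed the filter on low values (0.1 or more in mean FPKM). The table was drawn up from the same 9 libraries, so the levels and fold changes of the 9 genes are a description and support no claim about Hsp70 genes in general. Gene models were named in the files only by identifiers, which carry a chromosome arm. Of the 9 genes, 2 were placed on 1BL, 2 on 4AS, 3 on 4BL and 2 on 4DL. The short arm of chromosome 4A corresponds to the long arms of 4B and 4D in hexaploid wheat, so 7 of the 9 lay on one set of homoeologous arms. The study's annotation lists 5 of the 9 as heat shock proteins of the Hsp70 class (Traes_1BL_EBAF41F1E, Traes_4AS_894CED0DA, Traes_4AS_B978C93FA, Traes_4BL_8C0E579F8 and Traes_4DL_7B7B7B0A8), and the other 4 are known here only by their name in the table. Those 5 carry an Hsp70 entry different from the one given to the Bip genes in that annotation. In which compartment the 9 proteins act was not examined.

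The seedlings were of the wheat (Triticum aestivum) cultivar Yunong211, and leaves were taken on day 2 of treatment. Control seedlings (C) received no chemical. The DTT group (D) grew in medium with 7.5 mM dithiothreitol, a reducing agent that opens disulfide bonds and thereby disturbs protein folding in the ER. The DTT + TUDCA group (T) received the same DTT together with 25 μg/mL tauroursodeoxycholic acid, a bile acid that serves as a chemical chaperone. Each group held 3 libraries from independent biological replicates, and no group received TUDCA alone, so an effect of TUDCA could only be read in the presence of DTT.

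Depth lay between 16328279 and 26747959 fragments on genes per library. DTT + TUDCA replicate 2 stood apart, with 2655 of 55137 genes more than 4-fold from the other libraries of its group, against 235 to 458 in the other 8 libraries. Values with and without it are therefore given where it matters. In RNA from whole leaves, fewer cells of a type and less RNA per cell cannot be told apart.

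By their group means the 9 Hsp70 genes were sorted here into 2 courses across the 3 groups. In 6 genes the mean level was highest with DTT + TUDCA. In the other 3 genes, Traes_4AS_894CED0DA, Traes_4BL_8C0E579F8 and Traes_4DL_7B7B7B0A8, it was highest with DTT alone. In each of those 3 the D and T libraries overlapped. The summed level of all 9 was 29.7 ± 13 FPKM (fragments per kilobase, normalised to library depth; SD, n = 3) in C, 53.1 ± 8.42 in D and 137 ± 62.3 in T.

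**Figure D1:**
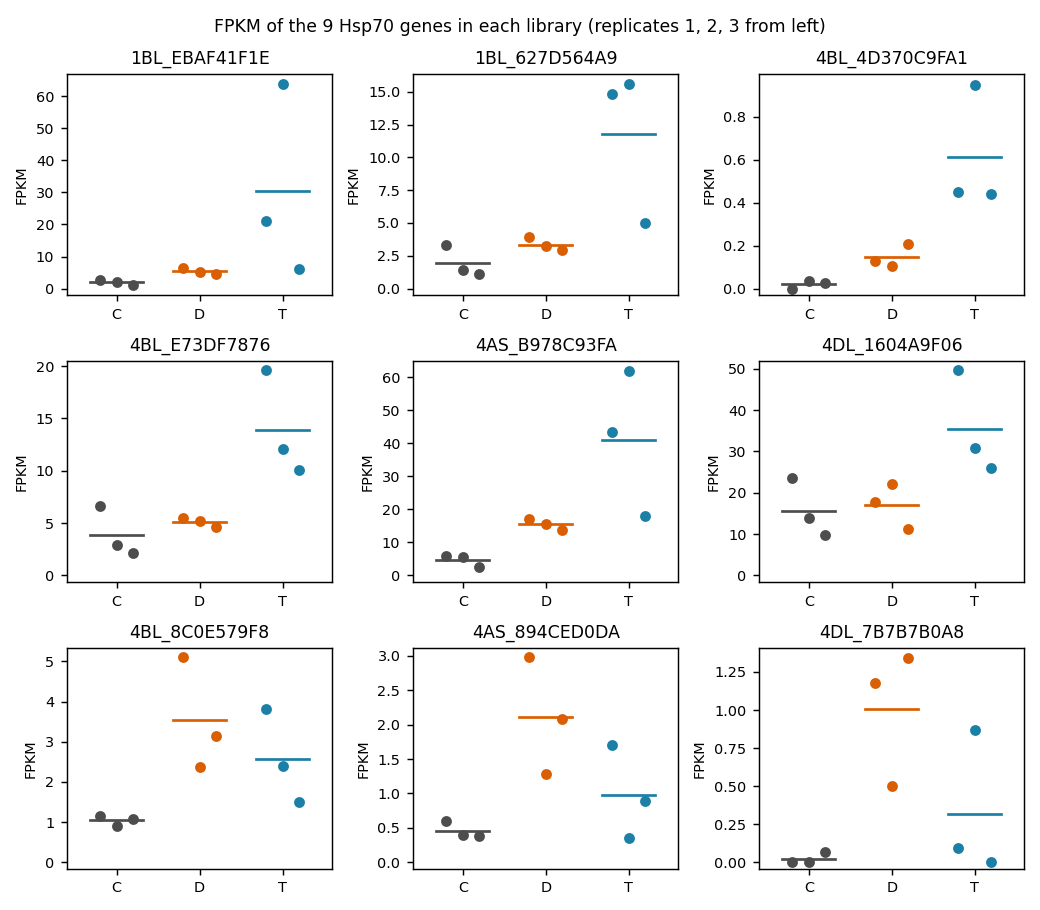
FPKM (vertical axis, linear, a separate scale in each panel) of each Hsp70 gene in each library of groups C, D and T, with points for replicates 1, 2 and 3 from left to right and lines for group means. The upper 6 genes have their highest group mean in T, with Traes_1BL_EBAF41F1E reaching 63.7 FPKM in 1 library, and the lower 3 have it in D.

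Among the genes highest with DTT + TUDCA, Traes_4AS_B978C93FA was the member with the most fragments. Its level was 5.90, 5.64 and 2.56 FPKM in the control replicates 1, 2 and 3. It was 17.0, 15.6 and 13.8 FPKM with DTT, and 43.3, 61.9 and 18 FPKM with DTT + TUDCA. The 3 groups formed 3 steps without overlap, although the lowest DTT + TUDCA library lay close above the highest DTT library. The log2 fold change of the scaled level was 1.54 (SE 0.45) in D vs. C, 2.83 (SE 0.45) in T vs. C and 1.29 (SE 0.45) in T vs. D. Without DTT + TUDCA replicate 2 the last 2 of these were 2.42 and 0.88.

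Traes_1BL_EBAF41F1E showed the widest spread between DTT + TUDCA libraries. It stood at 2.83, 1.95 and 1.17 FPKM in the control libraries and at 6.47, 5.30 and 4.40 FPKM in the DTT libraries. With DTT + TUDCA it was at 21.1, 63.7 and 6.24 FPKM, so that the highest library was 10.2 times the lowest. The library at 63.7 FPKM was replicate 2, and replicate 3 lay within the range of the DTT libraries. The log2 fold change was 1.22 (SE 0.69) in D vs. C, 3.19 (SE 0.69) in T vs. C and 1.97 (SE 0.69) in T vs. D, and without replicate 2 the values for T vs. C and T vs. D were 2.35 and 1.12.

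The second gene on 1BL, Traes_1BL_627D564A9, was at 3.32, 1.40 and 1.11 FPKM in the control. It was at 3.92, 3.22 and 2.92 FPKM with DTT and at 14.8, 15.6 and 5.01 FPKM with DTT + TUDCA. Control and DTT libraries overlapped, because control replicate 1 was above 2 of the 3 DTT libraries, while all DTT + TUDCA libraries were above all others. The log2 fold change was 0.66 (SE 0.48) in D vs. C, 2.35 (SE 0.48) in T vs. C and 1.69 (SE 0.48) in T vs. D.

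Traes_4BL_E73DF7876 and Traes_4DL_1604A9F06 differed little between control and DTT. The former was at 6.60, 2.89 and 2.16 FPKM in C, at 5.48, 5.17 and 4.62 FPKM in D and at 19.6, 12.1 and 10.1 FPKM in T. The latter was at 23.5, 13.8 and 9.74 FPKM in C, at 17.7, 22 and 11.2 FPKM in D and at 49.8, 30.7 and 26.0 FPKM in T. In both, control and DTT libraries overlapped and every DTT + TUDCA library was above every other library. Log2 fold changes in D vs. C were 0.30 (SE 0.37) for Traes_4BL_E73DF7876 and -0.09 (SE 0.36) for Traes_4DL_1604A9F06. Both signs changed when 1 library was left out: the first was -0.06 without control replicate 3, and the second was 0.23 without control replicate 1, 0.17 without DTT replicate 3 and 0.15 on the unscaled values. In T vs. D they were 1.44 (SE 0.37) and 1.12 (SE 0.36).

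Traes_4BL_4D370C9FA1 was close to undetected in the control and low in all groups. It had 0, 1 and 1 fragments in the control libraries, 4, 3 and 7 in the DTT libraries and 14, 25 and 11 in the DTT + TUDCA libraries. Its level in the DTT + TUDCA libraries was 0.452, 0.95 and 0.440 FPKM, and the 3 groups did not overlap. Per fragment sequenced, the pooled fragments were 4.08 times as frequent in T as in D (95% exact interval 2.22 to 8, covering counting error only). Against C, where only 2 fragments were counted, the ratio was 7.39 (1.7 to 67) for D and 30.2 (7.92 to 256) for T. The fitted log2 fold changes were 0.94 (SE 0.42) in D vs. C, 2.44 (SE 0.42) in T vs. C and 1.5 (SE 0.42) in T vs. D. All of them depend on the 0.1 added to each FPKM value. In T vs. D the value was 2.01 with 0.01 added and 0.48 with 1 added.

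The other 3 genes had their highest mean with DTT alone. Traes_4BL_8C0E579F8 was at 1.15, 0.897 and 1.08 FPKM in C, at 5.12, 2.37 and 3.15 FPKM in D and at 3.82, 2.39 and 1.51 FPKM in T. All DTT and all DTT + TUDCA libraries were above the control, and those 2 groups overlapped with each other. The log2 fold change was 1.38 (SE 0.36) in D vs. C, 0.97 (SE 0.36) in T vs. C and -0.41 (SE 0.36) in T vs. D. The last value, which places this gene among the 3, ranged from -0.72 without DTT + TUDCA replicate 1 to -0.08 without replicate 3 of that group, and was -0.13 without DTT replicate 1.

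Traes_4AS_894CED0DA was at 0.596, 0.397 and 0.379 FPKM in the control. It was at 2.98, 1.28 and 2.08 FPKM with DTT and at 1.70, 0.353 and 0.893 FPKM with DTT + TUDCA. DTT libraries were all above the control libraries, whereas DTT + TUDCA overlapped with both other groups and its replicate 2 was below every control library. The log2 fold change was 1.72 (SE 0.48) in D vs. C, 0.60 (SE 0.48) in T vs. C and -1.11 (SE 0.48) in T vs. D. Without DTT + TUDCA replicate 2 the last 2 were 1.10 and -0.62.

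Traes_4DL_7B7B7B0A8 was close to undetected in the control, with 0, 0 and 1 fragments. With DTT it had 13, 5 and 16 fragments (1.18, 0.5 and 1.34 FPKM), and with DTT + TUDCA it had 1, 8 and 0 fragments (0.0922, 0.867 and 0 FPKM). Only replicate 2 of the DTT + TUDCA group reached the range of the DTT libraries. Pooled fragments were 35.9 times as frequent in D as in C (95% exact interval 6.02 to 1459, counting error only) and 0.303 times as frequent in T as in D (0.128 to 0.644). The fitted log2 fold change was 3.0 (SE 0.76) in D vs. C, 1.13 (SE 0.76) in T vs. C and -1.88 (SE 0.76) in T vs. D. Without replicate 2 of DTT + TUDCA the last 2 were 0.19 and -2.82.

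**Figure D2:**
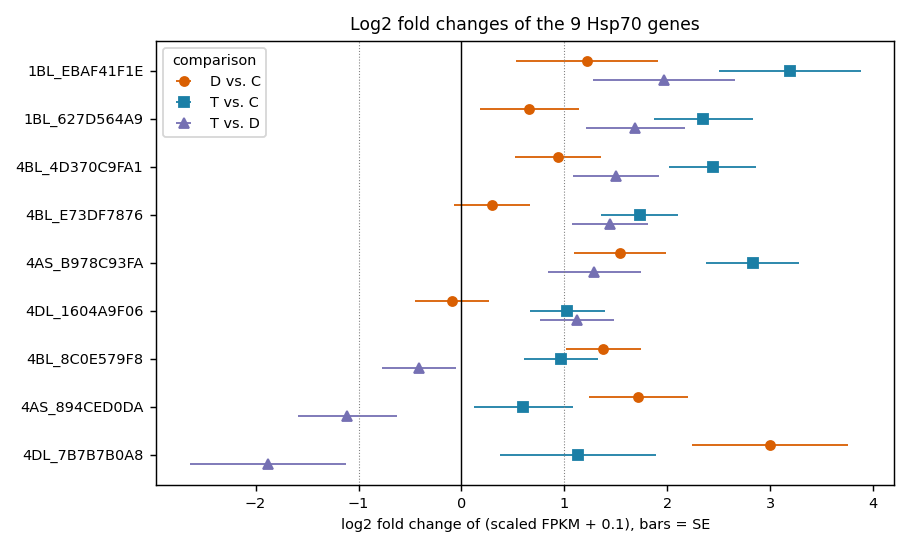
Log2 fold change of (scaled FPKM + 0.1) of each Hsp70 gene in D vs. C (circles), T vs. C (squares) and T vs. D (triangles), with bars for the standard error and dotted lines at 1 and -1. Triangles lie to the right of 0 for 6 genes and to the left for 3, and circles range from -0.09 to 3.0.

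Against the study's thresholds (unadjusted P under 0.01 with a log2 fold change of 1 or more in size), 4 of the 9 genes were up-regulated in D vs. C, namely Traes_4AS_894CED0DA, Traes_4AS_B978C93FA, Traes_4BL_8C0E579F8 and Traes_4DL_7B7B7B0A8. Of all 78030 genes tested, 4.27% were up-regulated in that comparison, and since the table was drawn from the differentially expressed genes of these same libraries, with 5 of the 9 in the study's list for D vs. C, nothing is read from the difference. With a Benjamini-Hochberg-adjusted P under 0.05 (limma), 2 of them passed, Traes_4BL_8C0E579F8 and Traes_4DL_7B7B7B0A8, beside 3.64% of all genes. None of the 4 passed without DTT replicate 1, where 2 DTT libraries remain, although the log2 fold changes there were 1.45, 1.48, 1.09 and 2.85 in the order named above. The count was 1 without control replicate 2, without control replicate 3 or without DTT replicate 3. The direction of all 4 was the same in those fits. All DTT libraries were above all control libraries in 6 genes, beside 29.8% of all genes.

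In T vs. C, 5 genes were up-regulated, namely Traes_1BL_627D564A9, Traes_1BL_EBAF41F1E, Traes_4AS_B978C93FA, Traes_4BL_4D370C9FA1 and Traes_4BL_E73DF7876, beside 4.36% of all genes. All 5 also had an adjusted P under 0.05 (limma), beside 3.33% of all genes, and all 5 passed the study's thresholds with any single library left out. With the replicate number as a block the count was 6, since Traes_4DL_1604A9F06 was added. The genes nearest the fold limit were Traes_4DL_1604A9F06 at 1.03 and Traes_4BL_8C0E579F8 at 0.97. Libraries did not overlap in 7 genes, with Traes_4BL_4D370C9FA1 among them, beside 24.5% of all genes. Traes_4BL_4D370C9FA1 passed the filter on low values only through the DTT + TUDCA group (0.083 FPKM over the other 6 libraries), so it could not have been tested without being high there, and 4 genes were up-regulated besides it. Traes_4AS_B978C93FA alone passed against the control in both treatments, comparisons that share the control libraries.

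In T vs. D, 3 genes were up-regulated, Traes_1BL_627D564A9, Traes_4BL_4D370C9FA1 and Traes_4BL_E73DF7876, beside 0.632% of all genes. Leaving aside Traes_4BL_4D370C9FA1, which passed the filter only through the DTT + TUDCA group, 2 were up-regulated. Traes_4BL_4D370C9FA1 also fell short of the thresholds with 0.01 or with 1 added before the log2. None of the 9 had an adjusted P under 0.05, and 0% of all genes were up-regulated by that threshold (limma). By the unadjusted P alone (limma) 8 of the 9, with Traes_4BL_4D370C9FA1 among them, were under 0.05, beside 7.42% of all genes. Limma-voom on the recovered fragments also gave 0 with an adjusted P under 0.05. The count of 3 moved with single libraries. Counted in either direction, it was 1 without DTT replicate 1 or DTT replicate 3. It was 2 without DTT replicate 2 or without replicate 1 or 2 of the DTT + TUDCA group. Without control replicate 3 it was 5, and without DTT + TUDCA replicate 3 it was 6. When the library that stood apart was left out, Traes_1BL_627D564A9 (1.37) and Traes_4BL_4D370C9FA1 (1.17) no longer passed and Traes_4DL_7B7B7B0A8 passed as down-regulated. Without DTT + TUDCA replicate 1, Traes_4BL_4D370C9FA1 passed as up-regulated and Traes_4AS_894CED0DA (-1.57) as down-regulated. Libraries did not overlap in 5 genes, beside 4.59% of all genes, and no gene was lower without overlap. The 5 include Traes_4BL_4D370C9FA1, whose high level in T was needed for it to be tested.

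The 3 genes lower in T than in D included 1 each on 4AS, 4BL and 4DL, and each of those arms also held at least 1 gene that was higher in T than in D. Both genes on 1BL were higher. Whether the 3 are homoeologous copies of one gene was not examined, because no sequence of these gene models was used here.

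In the summed FPKM the 3 genes were a small part. They summed to 1.52 ± 0.225 FPKM (SD, n = 3) in C, 6.67 ± 2.57 in D and 3.88 ± 1.62 in T, while the other 6 summed to 28.2 ± 12.8, 46.4 ± 8 and 133 ± 61.1. As a share of the sum of 9 the 3 genes held 5.7% ± 2.32 in C, 12.7% ± 4.49 in D and 3.03% ± 0.96 in T. The share was from 7.48 to 15.5% in D, from 1.92 to 3.63% in T and from 3.97 to 8.34% in C. A lower share in T than in D follows from how the 3 genes were chosen.

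**Figure D3:**
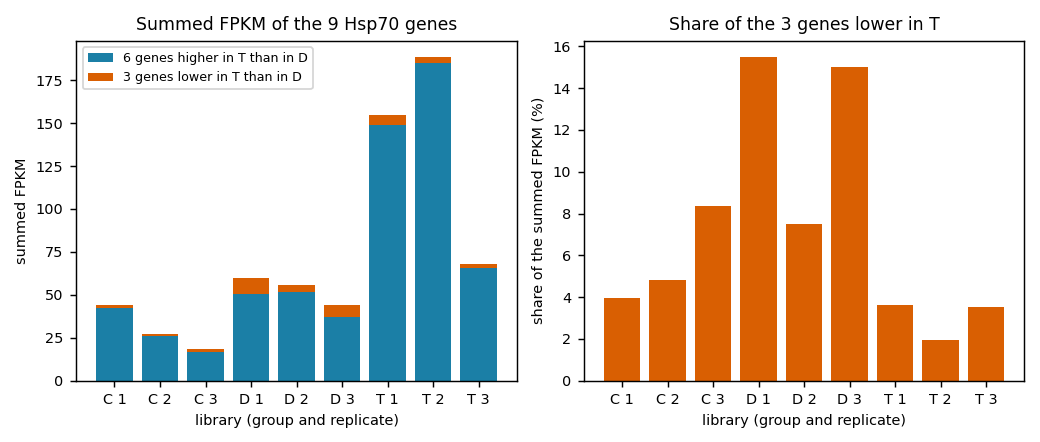
Left, summed FPKM of the 9 Hsp70 genes in each library, with the 6 genes higher in T than in D stacked under the 3 genes lower in T; right, share of that sum in percent held by the 3 genes. The sum reaches 189 FPKM in DTT + TUDCA replicate 2 and 68.2 FPKM in replicate 3, and the share is between 7.48 and 15.5% in the DTT libraries and at most 3.63% in the DTT + TUDCA libraries.

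The order given here is that of FPKM as deposited. FPKM divides fragments by the length of the gene model, and whether this is even for short models was not examined. In the control, Traes_4DL_1604A9F06 was highest with a mean of 15.7 FPKM and was above the next gene, Traes_4AS_B978C93FA (4.7 FPKM), without overlap. It then held between 51 and 53.5% of the summed level. With DTT these 2 genes were at 17 and 15.5 FPKM and their ranges overlapped. With DTT + TUDCA the means of Traes_4AS_B978C93FA (41 FPKM), Traes_4DL_1604A9F06 (35.5 FPKM) and Traes_1BL_EBAF41F1E (30.3 FPKM) were the highest, with ranges that overlapped from each to the next. That order rested on DTT + TUDCA replicate 2. Without it Traes_4DL_1604A9F06 was first (37.9 FPKM), as in the other groups, ahead of Traes_4AS_B978C93FA (30.6 FPKM), Traes_4BL_E73DF7876 (14.9 FPKM) and Traes_1BL_EBAF41F1E (13.7 FPKM). The lowest means belonged to Traes_4BL_4D370C9FA1 and Traes_4DL_7B7B7B0A8, whose ranges overlapped in the control (2 and 1 fragments in all) and with DTT + TUDCA (0.614 and 0.32 FPKM). With DTT, Traes_4BL_4D370C9FA1 was below every other member without overlap.

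Fragments and model lengths set the precision of these levels. The lengths implied by the FPKM values were 261 bp for Traes_4DL_1604A9F06, 536 bp for Traes_4DL_7B7B7B0A8, 622 bp for Traes_4BL_E73DF7876, 971 bp for Traes_4BL_8C0E579F8, 1479 bp for Traes_1BL_627D564A9 and 1530 bp for Traes_4BL_4D370C9FA1, all 6 shorter than the reading frame of a whole Hsp70 protein. The other 3 ranged from 2042 to 2467 bp. The leading place of Traes_4DL_1604A9F06 in the control thus rested on 121, 66 and 68 fragments over 261 bp, while Traes_4AS_B978C93FA had 272, 242 and 160 fragments over 2336 bp. HTSeq 0.6.1 is listed among the authors' tools, but its settings for strand and for fragments that match several homoeologous copies are not given in the sources used here. The counts of near-identical copies are therefore uncertain.

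Within a group, some libraries were high or low for most members. Control replicate 1 was the highest control library for 7 of the 9 genes. DTT replicate 1 was the highest DTT library for 6. DTT + TUDCA replicate 3 was the lowest of its group for 8 of the 9, the exception being Traes_4AS_894CED0DA, and the median deviation of the 9 genes from their group mean there was -0.66 on the log2 scale, against 0.02 for all genes tested. Deviations from the group means were not shared by all members. Their r over the 9 libraries was negative in 8 of the 36 pairs and ran from -0.60 (Traes_4AS_894CED0DA with Traes_4BL_4D370C9FA1) to 0.93 (Traes_1BL_EBAF41F1E with Traes_4AS_B978C93FA), with a median of 0.46.

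Over the 9 libraries, the 6 genes highest with DTT + TUDCA had Pearson correlations of log2 level between 0.55 and 0.96 with each other (15 pairs, median 0.86), and the 3 others between 0.49 and 0.80 (3 pairs, median 0.75). Pairs across the 2 courses had r between -0.23 and 0.65 (18 pairs, median 0.24). The courses were defined on the group means, so a higher r within them follows in part from the choice, and all pairs share the same libraries. Without DTT + TUDCA replicate 2 the medians were 0.84, 0.80 and 0.39. The pair with the highest r was Traes_1BL_EBAF41F1E with Traes_1BL_627D564A9 or Traes_4AS_B978C93FA, both at 0.96, and the lowest was Traes_4DL_1604A9F06 with Traes_4DL_7B7B7B0A8 at -0.23.

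**Figure D4:**
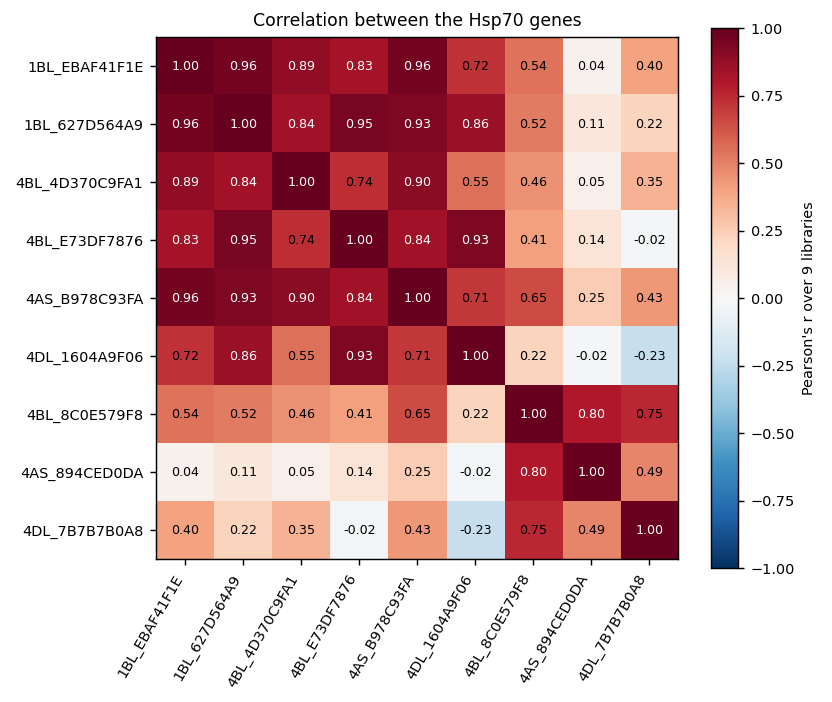
Pearson's r between each pair of Hsp70 genes, on log2 of (scaled FPKM + 0.1) over the 9 libraries, from blue (-1) to red (1), with the 6 genes highest in T first. The upper left block ranges from 0.55 to 0.96, the lower right block of 3 genes from 0.49 to 0.80, and the blocks between them from -0.23 to 0.65.

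For each member the most similar course over the 9 libraries was sought among the 57 other genes of the pathway table. For several members the nearest gene is 1 of many with a similar course, since the median r over all 57 was 0.85 for Traes_4AS_B978C93FA, 0.84 for Traes_4BL_4D370C9FA1 and 0.81 for Traes_1BL_EBAF41F1E, down to 0.12 for Traes_4AS_894CED0DA. Traes_1BL_EBAF41F1E was nearest to the nucleotide exchange factor gene Traes_5BL_43C3BDED2 (r = 0.97). Traes_4AS_B978C93FA and Traes_1BL_627D564A9 were nearest to Traes_5BL_D6603D993, a protein disulfide isomerase (PDI), an enzyme that forms and rearranges disulfide bonds (r = 0.96 and 0.91). Traes_4BL_4D370C9FA1 and Traes_4BL_E73DF7876 were nearest to the Bip gene Traes_1BL_EFDDA2877 (r = 0.94 and 0.85), which was itself at 0 in all control libraries, and Traes_4DL_1604A9F06 was nearest to the Sec61 translocon gene Traes_3DL_559FF19FE (r = 0.82).

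Traes_4BL_8C0E579F8 and Traes_4AS_894CED0DA, both highest with DTT alone, had the same nearest gene, Traes_3AS_693536752, which the table lists as sHSF (r = 0.95 and 0.94). That gene was at 0 in the control libraries. It was at 1.31, 0.251 and 0.579 FPKM with DTT and at 0.521, 0.068 and 0.0717 FPKM with DTT + TUDCA, so that the DTT libraries lay in the same order as for both Hsp70 genes. Traes_4DL_7B7B7B0A8 was nearest to Traes_6BS_72F59E261, listed as UbcH5, a ubiquitin-conjugating enzyme (r = 0.80), which was at 15.9, 7.02 and 12.4 FPKM with DTT and between 2.9 and 5.39 FPKM in the other 6 libraries.

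Among the 55130 other genes whose mean FPKM was 1 or more, the gene with the highest r was in each case one outside the pathway table. Its annotation was not looked up elsewhere. The r values ranged from 0.93 for Traes_4DL_1604A9F06 (with Traes_6AL_56A5F98E3) to 0.99 for Traes_4BL_4D370C9FA1 (with Traes_6BL_5B613F9E5). With so many genes and only 9 libraries, such values are descriptions. The count of genes with r above 0.95 was 60 for Traes_1BL_EBAF41F1E, 58 for Traes_4BL_4D370C9FA1, 38 for Traes_4AS_B978C93FA and 30 for Traes_4AS_894CED0DA, but 0 for Traes_4DL_1604A9F06 and 1 for Traes_4BL_E73DF7876.

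The Hsp40, NEF and Bip genes of the pathway table were selected on the same libraries too, so their counts are descriptions. Whether their proteins work with those of the 9 Hsp70 genes was not examined. All 3 Hsp40 genes were up-regulated against the control by either treatment, with median log2 fold changes of 1.20 and 1.85, and none was called in T vs. D (median 0.66). Of the 6 NEF genes, 2 were up-regulated in D vs. C (median 1.21) and all 6 in T vs. C (median 1.87), with none called in T vs. D (median 0.72). Of the 6 Bip genes, 3 passed with DTT, 5 with DTT + TUDCA and 3 in T vs. D (median 1.83), and 3 of the 6 had no fragment in any control library. For the 9 Hsp70 genes the median was 1.22 in D vs. C, 1.73 for T vs. C and 1.29 for T vs. D, and for all genes tested it was -0.01, -0.02 and -0.02. With Traes_4BL_4D370C9FA1 and Traes_4DL_7B7B7B0A8 entered at the log2 ratio of their pooled fragments, these Hsp70 medians were 1.38, 2.35 and 1.29.

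No Hsp40, NEF or Bip gene had a negative log2 fold change in T vs. D, whereas 3 of the 9 Hsp70 genes did, none of which passed the thresholds in that comparison. The Hsp40 genes spread little, from 0.66 to 0.79, and the NEF genes from 0.17 to 1.03, against -1.88 to 1.97 for Hsp70. The value of -1.88 belongs to Traes_4DL_7B7B7B0A8, which had 0 to 16 fragments per library. Both signs were not particular to Hsp70. In T vs. D the sHSF genes ran from -1.35 to 1.89, the Sec61 genes from -0.89 to 1.74 and the PDI genes from -0.58 to 1.27. For the genes of the other names these values are given only with DTT + TUDCA replicate 2. In that library the 3 Hsp40 genes were at 49.4, 81.3 and 56.1 FPKM, against 20 to 39.6 FPKM in replicates 1 and 3 of the group. Without it the Hsp70 genes at the ends, Traes_4DL_7B7B7B0A8 and Traes_1BL_EBAF41F1E, were at -2.82 and 1.12. Of the 57 other genes of the table, 42 were higher and 15 lower in T than in D, with 6 up-regulated and 1 down-regulated. The 6 include Traes_1BL_EFDDA2877, whose level in T was needed for it to be tested.

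**Figure D5:**
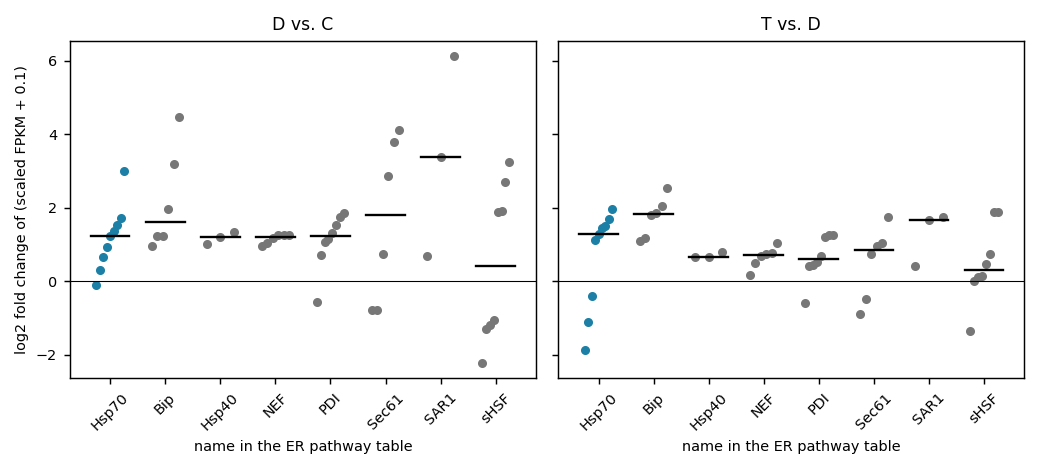
Log2 fold change of (scaled FPKM + 0.1) in D vs. C (left) and T vs. D (right) for the genes of the pathway table under 8 of its names, 1 point per gene, with bars at the medians and Hsp70 in blue. In T vs. D the Bip, Hsp40 and NEF points all lie above 0, while the Hsp70 points run from -1.88 to 1.97. The PDI, Sec61 and sHSF points there also lie on both sides of 0.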

How the data were processed

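RNA-seq libraries of 150 bp paired-end reads were made from 9 leaf samples. The authors removed low-quality reads, mapped the rest with TopHat2 2.0.12 and deposited FPKM values for all genes. Bowtie2 2.2.3 and HTSeq 0.6.1 are also listed among their tools. The genome release and the settings for multiply mapped reads are not given in the sources used here. Libraries were scaled by median ratios (0.861 to 1.096, over 54436 genes above 0 in every library and averaging 1 FPKM or more). The 78030 genes averaging 0.1 FPKM or more were fitted on log2(scaled FPKM + 0.1) with limma 3.58.1 (R 4.3.3), moderated variances with a trend and 1 model of the 3 groups. Printed FPKM values are as deposited, and fold changes understate low genes. Genes were called at the study's thresholds, and adjusted P-values are Benjamini-Hochberg. The fit was tested on simulated data. Fragments per gene were recovered for 100% of the 91537 genes above 0, because FPKM values are whole multiples of 1 fragment, and ratios of pooled fragments carry exact 95% binomial intervals. Other steps used python 3.11.15, numpy 2.4.6, pandas 2.3.3, scipy 1.17.1 and matplotlib 3.10.9.

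Named genes were all 9 Hsp70 genes, the Bip, Hsp40 and NEF genes as groups, and for each Hsp70 gene its most similar gene in the pathway table and among all genes averaging 1 FPKM or more. The members and lists were chosen with earlier results of these data known. Gene names are those of the study's table, and a RefSeq table of 155467 genes matched none of the 9 identifiers. Deviations of same-numbered T and C libraries were weakly correlated over all genes (r = 0.16, 0.18 and 0.12), so the blocked count is given for T vs. C. Alternatives were 0.01 or 1 added, a minimum mean FPKM of 1 or none, unscaled FPKM, quantile normalization, a replicate block, no trend, only the 2 groups compared, adjusted P-values, limma-voom on recovered fragments, and each library left out in turn.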

Additional observations from a re-analysis of the deposited data

How the results depend on the processing

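The counts of Hsp70 genes called in either direction depended on several settings. In D vs. C (4 genes) the count was 2 with adjusted P-values, 1 with 1 added before the log2 and 2 with no minimum, and it ranged from 0 to 4 when each library was left out. In T vs. C (5 genes) it ranged from 4 to 6 over all alternatives and from 5 to 6 when each library was left out. In T vs. D (3 genes) it was 0 with adjusted P-values, 1 with no minimum and 5 with limma-voom, and it ranged from 1 to 6 when each library was left out. With the replicate block the count was 4 for D vs. C and 6 for each of T vs. C and T vs. D. Deviations of same-numbered libraries had r = -0.05, 0.00 and -0.05 in the D–C pairs and r = 0.04, 0.04 and -0.17 in the T–D pairs. The labels do not say what same-numbered libraries share. Why the counts changed between settings was not tested.

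Of 507 fold changes recomputed for single Hsp70 genes, 445 kept direction and side of the thresholds, 37 fell short of them, 21 newly passed and 4 changed sign. These counts do not measure stability, because many of the 507 could not change sign. Another minimum, the replicate block, no trend and the fit of only the 2 groups leave the fold change as it was and move only its P-value. Leaving out a library of the group not compared hardly moved it. The sign changes all concerned D vs. C: Traes_4BL_E73DF7876 at -0.06 without control replicate 3 (range -0.06 to 0.74 over the libraries left out), and Traes_4DL_1604A9F06 at 0.15 on unscaled FPKM, 0.23 without control replicate 1 and 0.17 without DTT replicate 3 (range -0.42 to 0.23). On unscaled FPKM the median log2 fold change of all genes was 0.22 for D vs. C, against -0.01 with scaling, 0.16 for T vs. C, against -0.02, and -0.07 for T vs. D, against -0.02. With 0 to 16 fragments per library in C and D, Traes_4BL_4D370C9FA1 and Traes_4DL_7B7B7B0A8 were limited by depth.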
